A study of Mus musculus with 12 samples.

Results

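The fibroblast matrix genes Col1a1, Col1a2 and Fn1 were described by the histone marks listed at their loci in primary mouse embryonic fibroblasts (MEFs). The 3 genes were taken by fixed windows of the mouse build mm9, and every listed peak that shared at least 1 bp with a window was counted as a member. The Col1a1 window was 35 kb long (chr11:94785000-94820000), the Col1a2 window 50 kb (chr6:4445000-4495000) and the Fn1 window 80 kb (chr1:71630000-71710000). Together they held 25 of the 60795 peaks in the lists for trimethylated lysine 4 of histone H3 (H3K4me3) and 0 of the 68085 peaks in the lists for trimethylated lysine 27 (H3K27me3). In the RefSeq gene table (GRCm38.p6) the neighbouring protein-coding genes are Gm11544 and Sgca for Col1a1, Bet1 and Casd1 for Col1a2, and Atic and Mreg for Fn1.

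The cells were primary MEFs of a hybrid 129/B6 background, either wild type (WT, lincRNA-p21+/+) or lacking the p53-induced long noncoding RNA lincRNA-p21 (KO, lincRNA-p21-/-). Cells of each genotype were mock treated or exposed for 24 h to doxorubicin, which damages DNA. The labels give its concentration as 0.5 mM, a unit that could not be checked against other sources. Each mark had 1 chromatin immunoprecipitation library in each of the 4 conditions, called here WT mock, WT doxorubicin, KO mock and KO doxorubicin. With 1 library per condition no spread between replicates could be measured, no difference below has a replicate check, and no p-value was computed. The labels do not give the number of embryos or cultures behind a library.

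Type I collagen, the main fibrillar collagen of skin, tendon and bone, is a triple helix of chains encoded by Col1a1 (the alpha 1 chain) and Col1a2 (the alpha 2 chain). Fn1 encodes fibronectin, a glycoprotein that binds integrins on the cell surface and is assembled into fibrils to which collagens attach. Fibroblasts transcribe all of them at high levels. H3K4me3 marks the start regions of active or poised genes and tends to be broad at highly transcribed genes that define a cell type, whereas H3K27me3 is laid down by Polycomb repressive complex 2 at silenced genes.

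Of the 3 genes, the RefSeq promoter table (GRCm38.p6) matched 1, Col1a2. Its sequence is shown because no other was available. Col1a2 is also the gene at which the lists of the genotypes differed most, and no link between its sequence and that difference was tested. The stretch runs from 250 bases before to 30 after the annotated start, on the + strand of GRCm38.p6 (chr6:4505368-4505647), and these positions belong to another build than the mm9 peaks below. Capitals mark matches to CCAAT and GGGCGG on either strand.
Col1a2: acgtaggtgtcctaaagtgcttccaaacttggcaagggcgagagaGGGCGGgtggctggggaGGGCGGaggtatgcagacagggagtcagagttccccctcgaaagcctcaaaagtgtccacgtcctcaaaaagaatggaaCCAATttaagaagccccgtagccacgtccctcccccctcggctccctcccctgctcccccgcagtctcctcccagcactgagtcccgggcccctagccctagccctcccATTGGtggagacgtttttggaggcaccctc

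CCAAT, the box bound by the factor NF-Y, matched 2 times in the 300-base Col1a2 entry. The first match begins at position -109 as written, and the second, in reverse complement (ATTGG), begins at position 1, the annotated start. GGGCGG, the GC box bound by Sp1, matched 2 times, beginning at -205 and -188. Among the table's 32851 promoters, 37.4% hold CCAAT on either strand and 35.7% hold GGGCGG, so that neither is unusual. TATAA, found in 24.9% of promoters, and TGACGTCA, the cyclic AMP response element found in 1.79%, had 0 matches within these 300 bases. Bases outside the entry were not searched, and all positions depend on the start annotated for it, which was not checked against other sources. The entry holds 13 CpG dinucleotides, and its ratio of observed to expected CpG was 0.470, above that of 56.1% of promoters (median 0.384). Where this start lies within the mm9 peaks was not determined.

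Each of the 3 genes had H3K4me3 in all 4 conditions, in a long main region that held the widest, or main, peak of the window. The Fn1 window held no other H3K4me3 region, the Col1a2 window held 2 regions in all and the Col1a1 window 3. Regions were formed by joining overlapping H3K4me3 peaks over the 4 lists, which gave 16628 regions, of which 13107 (78.8%) were present in every list. The Fn1 region spanned 8592 bp (chr1:71692741-71701332) and was longer than 99.7% of the regions present in every list, with 33 longer. The Col1a1 region spanned 6838 bp (chr11:94796664-94803501) and was longer than 99.1%. The Col1a2 region spanned 4080 bp (chr6:4454998-4459077) and was longer than 90.6%. The median of those regions was 2331 bp. The members were chosen as fibroblast genes, and no marker of another cell type was placed on mm9 here. The marks at these loci therefore cannot check the labelled cell type.

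**Figure D1:**
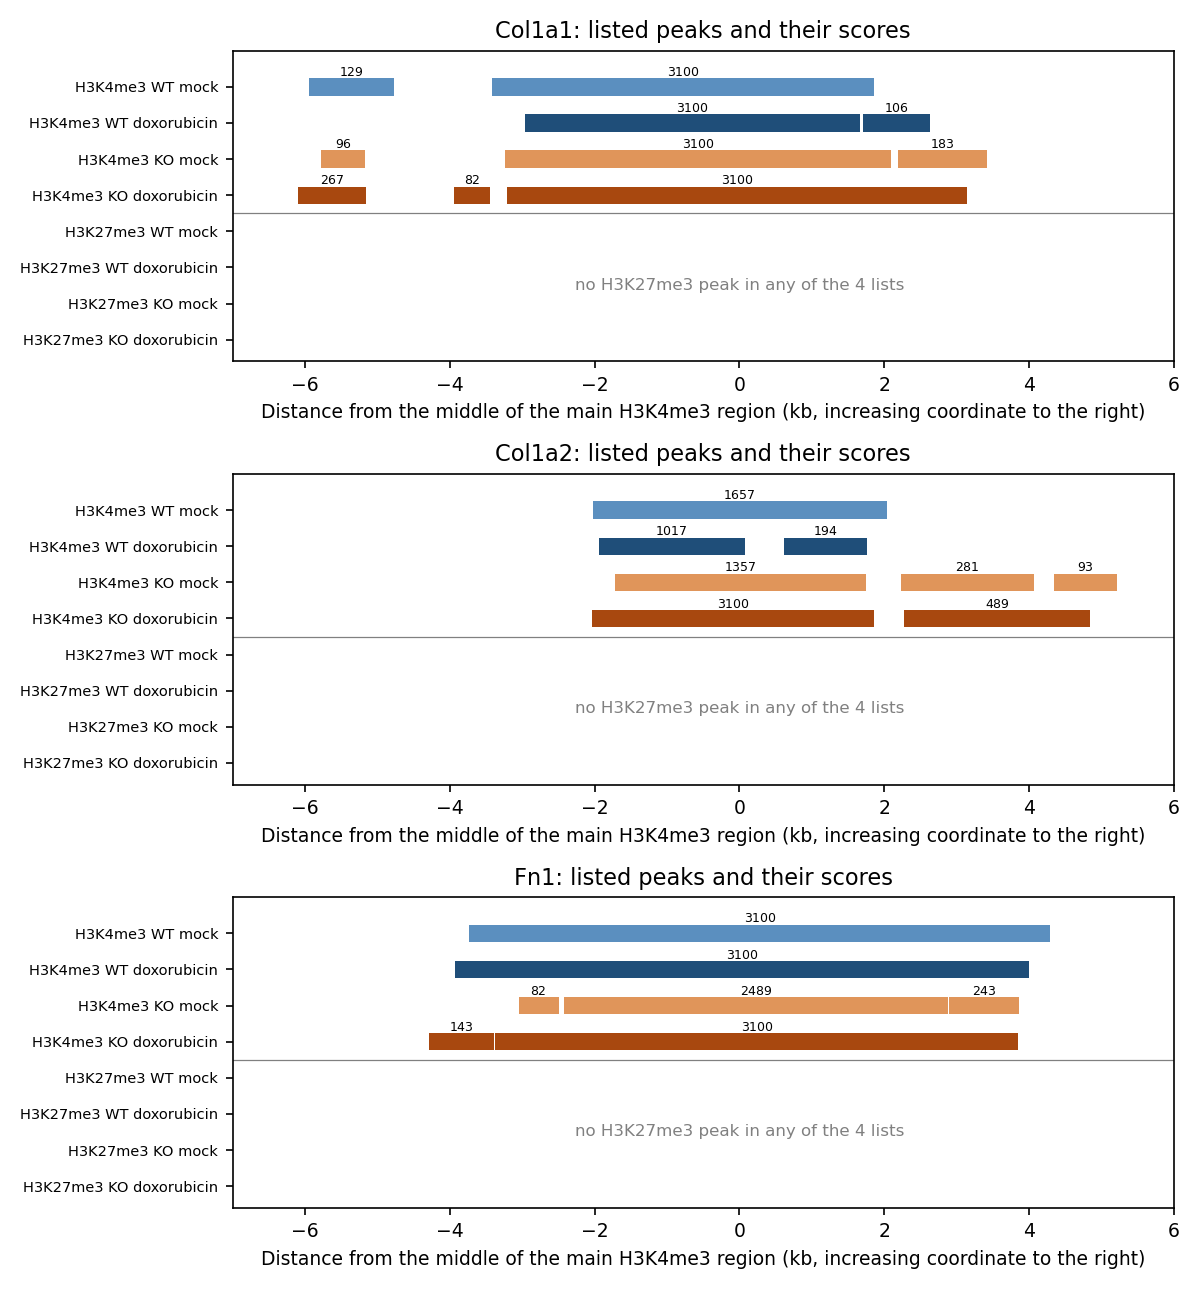
Listed peaks at Col1a1, Col1a2 and Fn1 by mark and condition, as bars along the distance in kb from the middle of the main H3K4me3 region, with each peak's score above it. All 3 genes carry a main H3K4me3 peak in the 4 conditions and no H3K27me3 peak, and at Col1a2 further peaks to the right are listed in the KO mock and KO doxorubicin libraries and in neither WT library.

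In WT cells the Fn1 main peak was 8027 bp wide after mock treatment and 7931 bp after doxorubicin, and in KO cells it was 5317 and 7222 bp wide. Its width exceeded that of 99.8% and 99.9% of the peaks in the WT lists and 99.3% and 99.8% in the KO lists, with 23 to 98 wider peaks. The KO mock library stood below the 3 others in width, and there the region was listed as 3 peaks. The smaller pieces, of 554 and 967 bp, lay 69 and 4 bp from the main peak, so that the covered length was 6838 bp. In KO doxorubicin cells a 910-bp piece lay 12 bp from the main peak, which brought the covered length to 8132 bp, close to the WT values. Of the Fn1 bases covered in any list 79.5% were covered in all 4, against 63.5% over all H3K4me3 regions. The latter include regions missing from some lists. Among regions present in every list, the median share of the length covered in all 4 was 72.1%, and Fn1 was above 75.9% of them. By this measure Fn1 had the least varied outline of the 3 genes.

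The score of a peak is the authors' value of -10 × log10 of the peak caller's p-value, and it is used here to place a peak within its own list. Many scores stopped at a ceiling of 3100, which was reached or passed by 8.05% of H3K4me3 peaks in the KO mock list, 18.1% and 20.0% in the WT mock and WT doxorubicin lists, and 35.4% in the KO doxorubicin list. The Fn1 main peak was at this ceiling in every list but KO mock, where it scored 2489.09, above 84.1% of that list. The Col1a1 main peak was at the ceiling in all 4 lists. In the KO mock list, which had the fewest peaks at the ceiling, the Col1a1 score was above 92.0% of peaks and tied with 6.80%.

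In WT cells the Col1a1 main peak was 5275 bp wide after mock treatment and 4627 bp after doxorubicin, and in KO cells it was 5336 and 6358 bp wide. These widths exceeded 98.1% and 97.6% of the peaks in the WT lists and 99.3% and 99.7% in the KO lists. Both KO libraries had wider main peaks than both WT libraries, although the values of the mock libraries lay close together. How many regions elsewhere share this order of widths was not counted.

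At the end of higher coordinate, the Col1a1 peaks ran on in further pieces. A 929-bp piece (score 106.20) lay 43 bp beyond the main peak in WT doxorubicin cells, and a 1225-bp piece (score 183.17) lay 98 bp beyond it in KO mock cells. In KO doxorubicin cells the main peak itself reached 94803230, and in WT mock cells listed signal ended at 94801938. With these pieces the region was covered over 5275 bp (mock) and 5556 bp (doxorubicin) in WT cells, and over 6561 and 6358 bp in KO cells. Both KO values were above both WT values, and the share of all regions with this order was not counted.

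A separate, small H3K4me3 region lay 1360 bp below the Col1a1 main region (chr11:94793989-94795303). It was listed in WT mock (1167 bp, score 128.65), KO mock (606 bp, score 96.19) and KO doxorubicin cells (937 bp, score 267.47), and had no peak in WT doxorubicin cells. Over all regions 0.397% had this pattern of presence. A further 492-bp peak (score 82.41) between it and the main region was listed in KO doxorubicin cells alone. The scores of 96.19 and 82.41 are near the lowest scores kept in the lists, which were 80.01 to 80.09.

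Col1a2 had the narrowest main peak of the 3 genes in every condition. In WT cells it was 4061 bp wide after mock treatment and 2014 bp after doxorubicin, and in KO cells it was 3474 and 3893 bp wide. Its width exceeded 93.9% and 61.2% of the peaks in the WT lists and 94.3% and 95.7% in the KO lists. The WT doxorubicin library stood apart, and there the region was listed as 2 peaks, with a 1144-bp piece (score 193.63) beyond a gap of 551 bp. The covered length was then 3158 bp, still the shortest of the 4.

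The Col1a2 score was 1657.39 in WT mock, 1017.04 in WT doxorubicin and 1357.36 in KO mock cells, and was at the ceiling in KO doxorubicin cells. Within the lists these scores were above 53.5%, 38.7%, 56.4% and 64.6% of peaks. The ceiling in KO doxorubicin cells was shared with 33.5% of that list.

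**Figure D2:**
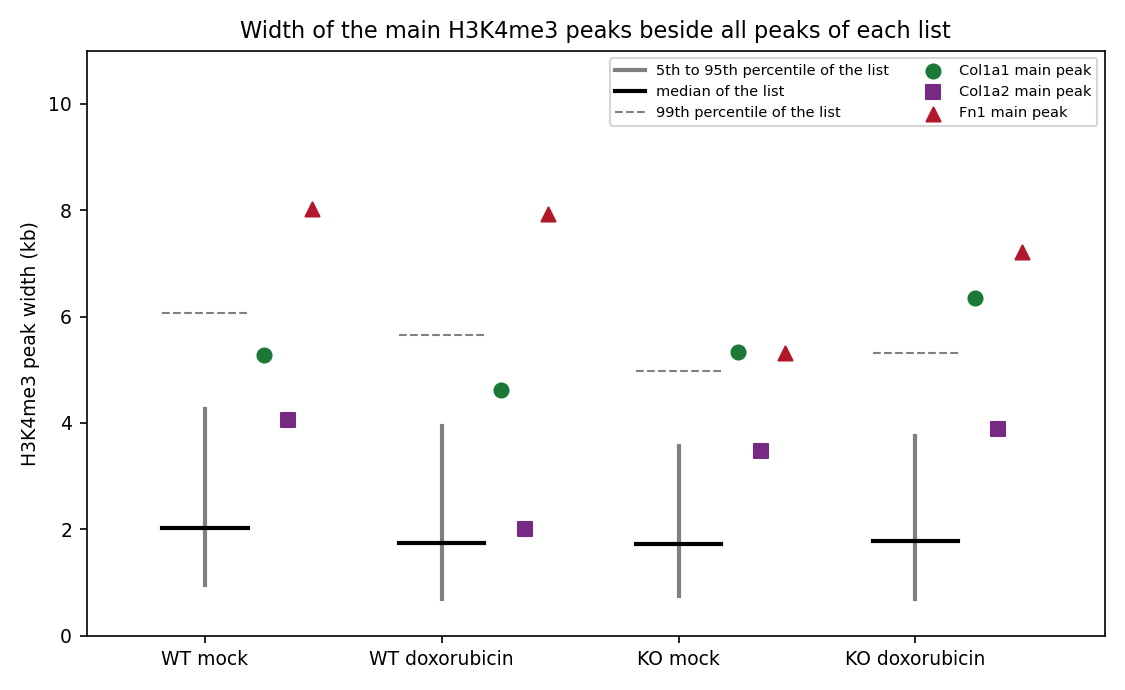
Width in kb of the main H3K4me3 peak of each gene (coloured symbols) in the 4 conditions, beside the 5th to 95th percentile (grey bar), median (black line) and 99th percentile (dashed line) of all peaks in the same list. Fn1 lies above the 99th percentile in all 4 lists, Col1a1 in both KO lists, and Col1a2 at 2014 bp in WT doxorubicin lies near that list's median of 1734 bp.

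The main difference between the lists of the genotypes at these genes was a second H3K4me3 region at Col1a2. It lay 186 bp above the end of the main region, spanned 2983 bp (chr6:4459264-4462246) and was listed in both KO libraries and in neither WT library. In KO mock cells it held a 1841-bp peak (score 281.35) and an 865-bp peak (score 92.93), and in KO doxorubicin cells a single 2563-bp peak (score 488.82). These scores are under the list medians of 1161.87 (KO mock) and 2140.57 (KO doxorubicin). The WT lists hold no score under 80.01 (mock) and 80.07 (doxorubicin), so that weaker WT signal would not be listed. Col1a2 is on the + strand in the RefSeq table, so that higher coordinates are towards the 3' end of the gene. Whether the region lies in an exon or an intron was not determined.

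Regions listed in both KO libraries and neither WT library made up 0.415% of all H3K4me3 regions (69 regions), against 3.55% (590) for the reverse pattern. Of all regions, 3 (0.0180%) had the former pattern and lay within 1 kb of a region present in every list, the Col1a2 region being 1 of these, and 33 (0.198%) had the reverse pattern there. These counts were made after the Col1a2 pattern had been seen. They show how often it occurs in these lists and are no test of the genotype.

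Counted by base, 7063 bp in the Col1a2 window were covered in at least 1 H3K4me3 list. Of these, 2923 bp (41.4%) were covered in all 4 lists and 2286 bp (32.4%) in both KO lists and neither WT list, while 0 bp were covered in both WT lists and neither KO list. In the Col1a1 window 516 of 8645 bp (5.97%) were covered in both KO lists alone and 0 bp in both WT lists alone. At Fn1 the order was the other way, with 0 bp in both KO lists alone and 159 bp (1.85%) in both WT lists alone. Over all H3K4me3 regions these shares were 0.792% for both KO lists alone and 6.50% for both WT lists alone. The windows of the collagen genes held a larger share of KO-only bases than all regions pooled, and the Fn1 window did not. How many single regions hold shares of this size was not counted.

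**Figure D3:**
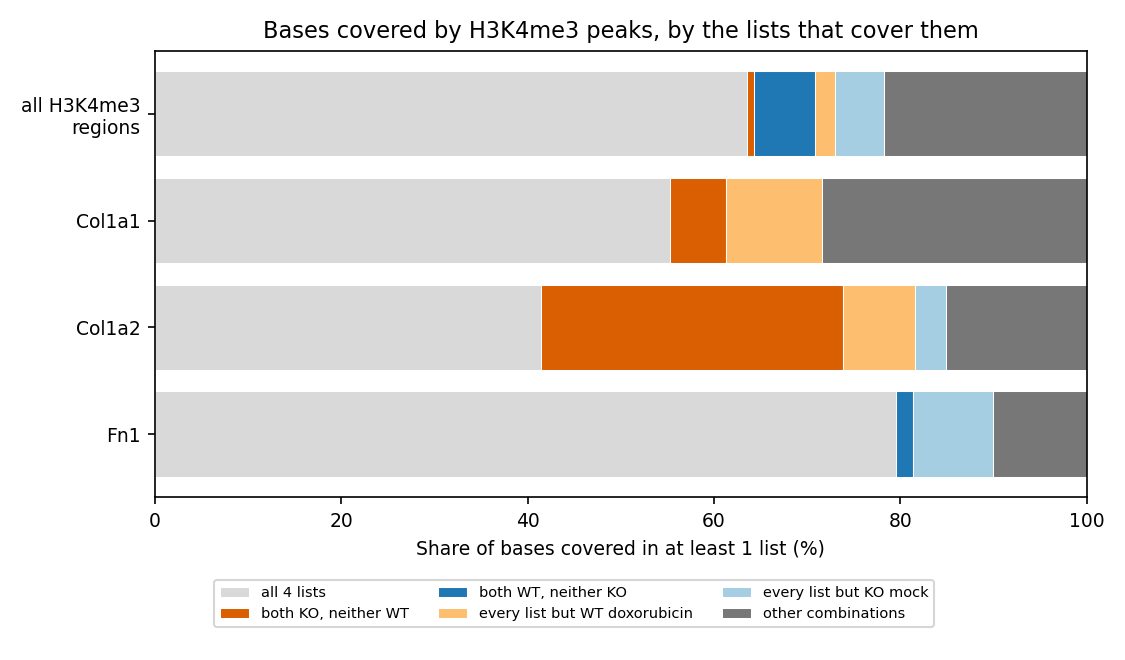
Share in percent of the bases covered by H3K4me3 peaks in at least 1 list, split by which lists cover them, for all regions and for each gene's window. Bases covered in both KO lists and neither WT list make up 32.4% at Col1a2, 5.97% at Col1a1, 0% at Fn1 and 0.792% over all regions.

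The comparison of KO with WT cells asked whether the marks differ when lincRNA-p21 is missing, with and without DNA damage. Within the main regions, the KO over WT ratio of covered length in mock cells was 1.24 for Col1a1, 0.855 for Col1a2 and 0.852 for Fn1, and the median over all regions present in both lists was 0.852. Col1a2 and Fn1 thus lay at the median of the lists, and Col1a1 was above 98.7% of regions. In doxorubicin-treated cells the ratios were 1.14 for Col1a1, 1.23 for Col1a2 and 1.03 for Fn1, with a median of 0.983 over all regions. They exceeded 81.7%, 89.6% and 60.4% of regions. A ratio of 1.5 or more in either direction was reached by 0 of the 3 genes in mock cells, where 12.0% of all regions reached it, and by 0 of 3 in doxorubicin-treated cells, where 10.1% did. By the width of the widest peak, 1 gene passed it in each, Fn1 in mock cells (0.662) and Col1a2 in doxorubicin-treated cells (1.93). The share of all regions that pass by this width was not counted.

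These ratios leave out the second Col1a2 region, which a gap separates from the main one. When regions were joined across gaps under 1 kb, a choice made after the data had been seen, the Col1a2 region was covered over 4061 bp (mock) and 3158 bp (doxorubicin) in WT cells, and over 6180 and 6456 bp in KO cells. Both KO values were above both WT values, and the share of joined regions with this order, at any size of difference, was not counted. The KO over WT ratio was 1.52 in mock cells, above 99.8% of the joined regions, and 2.04 in doxorubicin-treated cells, above 99.7%. A ratio of 1.5 or more was reached by 0.249% of joined regions in mock cells and by 2.53% in doxorubicin-treated cells. Without peaks scored under 100 the mock ratio was 1.31, below 1.5, and the doxorubicin ratio stayed at 2.04.

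Among the 12973 joined regions present in every list, 14 (0.108%) had a covered length at least 1.5 times as long in the shorter KO library as in the longer WT library, and Col1a2 was 1 of them. Its place there rested on the 865-bp KO mock peak scored 92.93, without which the mock ratio was 1.31. The reverse held for 328 (2.53%). Col1a1, joined in the same way with its small region at lower coordinates, was covered over 6442 bp (mock) and 5556 bp (doxorubicin) in WT cells, and over 7167 and 7787 bp in KO cells. Its KO over WT ratios were 1.11 and 1.40, above 95.6% and 96.0% of joined regions. Without peaks scored under 100 the small region was no longer joined to the main one. The ratios of 1.24 and 1.14 obtained then are those of the main region alone and leave the small region out. Fn1 was not altered by the joining, and its ratios stayed at 0.852 and 1.03.

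**Figure D4:**
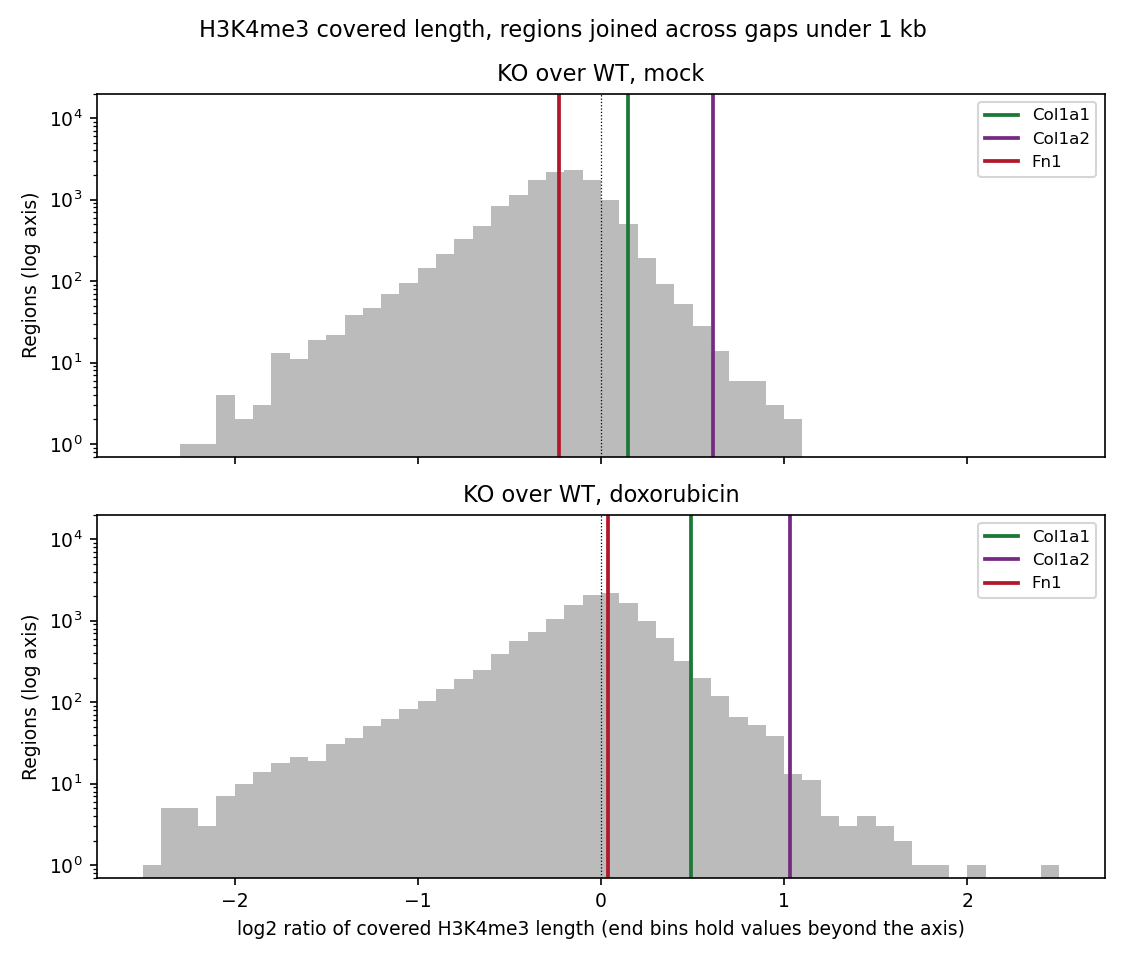
Number of H3K4me3 regions (log axis) by the log2 ratio of covered length in KO over WT cells, for mock and doxorubicin-treated cells, with vertical lines for the 3 genes and regions joined across gaps under 1 kb, a choice made after the data had been seen. Col1a2 lies in the right tail at 0.61 in mock and 1.03 in doxorubicin-treated cells (-0.23 and 0.30 without joining), while Fn1 lies near the bulk at -0.23 and 0.04.

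The libraries differed as a whole along with these values. In all, H3K4me3 peaks covered 33.4 and 32.1 Mb in the WT lists (mock, then doxorubicin) and 27.1 and 29.2 Mb in the KO lists. Median scores were 1511.79 and 1525.89 in the WT lists and 1161.87 and 2140.57 in the KO lists, in the same order. Read depth and enrichment per library are unknown, and their part in the Col1a1 and Col1a2 values was not tested.

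Doxorubicin against mock asked what DNA damage did to the marks in each genotype. In WT cells the doxorubicin over mock ratio of covered length was 1.05 for Col1a1, 0.778 for Col1a2 and 0.988 for Fn1, where the median over all regions was 0.921. Col1a2, the lowest of the 3, was above 13.6% of regions. In KO cells the ratios were 0.969 for Col1a1, 1.12 for Col1a2 and 1.19 for Fn1, with a median of 1.05. A ratio of 1.5 or more in either direction was reached by 0 of 3 genes in WT cells, where 5.18% of regions reached it, and by 0 of 3 in KO cells, where 4.47% did. By the width of the widest peak in place of covered length, Col1a2 had a ratio of 0.496 in WT cells, past that size, in the library that listed it as 2 peaks. How many of all regions pass by this width was not counted. The Col1a1 ratios changed direction in both genotypes by the widest peak, to 0.877 in WT and 1.19 in KO cells. The comparisons share libraries, and their values are not independent of each other.

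How a region was split into peaks also varied with the library. Among the 540 regions of 5 kb or more present in every list, 9.81% were listed as 2 or more peaks in the WT mock library, against 29.6% in WT doxorubicin, 27.2% in KO doxorubicin and 34.6% in KO mock. The WT mock library listed the main region of each of the 3 genes as 1 peak, although the Col1a2 region, at 4080 bp, is not among those 540. The KO mock library listed the Col1a1 region as 2 peaks and the Fn1 region as 3. The Col1a2 main region was listed as 2 peaks in WT doxorubicin cells and as 1 in both KO libraries.

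H3K27me3 was not listed at any of the 3 genes in any condition. None of the 12 main peaks had an H3K27me3 peak of its own condition over it or within 5 kb. Over all H3K4me3 peaks, 16.2% (mock) and 16.3% (doxorubicin) overlapped H3K27me3 in WT cells, and 13.3% and 12.0% did in KO cells. Counted within 5 kb, the shares were 24.3% and 24.2% in WT cells and 20.2% and 19.6% in KO cells. Of the H3K4me3 regions present in every list 85.1% had no H3K27me3 in any list, so that its absence from these genes is the common case.

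The nearest H3K27me3 peak was closer to Col1a1 than to Col1a2 and Fn1, which had similar distances. From the Col1a1 region it was 90.2 kb (mock) and 99.2 kb (doxorubicin) in WT cells and 78.2 and 97.7 kb in KO cells, and the peaks found there were weak, with scores of 83.63 to 109.21. From the Col1a2 region it was 588 and 736 kb in WT cells and 738 and 739 kb in KO cells. The peaks there scored 104.67 and 80.05 in WT cells and 1048.85 and 1106.5 in KO cells. From the Fn1 region the distance was 544, 562, 566 and 568 kb in the same order, to peaks scored 84.2, 93.52, 111.75 and 204.49. Low scores of the nearest peak were thus not particular to Col1a1. The median distance over regions present in every list, to a peak of any H3K27me3 list, was 32.3 kb. Of those regions 5.27% lay farther from H3K27me3 than Col1a2, 5.67% farther than Fn1 and 31.3% farther than Col1a1.

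The regions whose covered length over the 4 H3K4me3 lists was most like that of each gene were found by the root mean square difference of log2 covered length. For Col1a1 the nearest was chr19:44367424-44374067 (difference 0.065), for Col1a2 chr1:9534527-9538719 (0.033) and for Fn1 chr11:18913099-18921584 (0.042). The next were chr9:59502947-59509497 (0.089), chr11:94070767-94075119 (0.041) and chr6:127097798-127106024 (0.043). The regions most like Col1a1 and Col1a2 had no H3K27me3 in any list, and both regions most like Fn1 had some. These regions were not given gene names, since no mm9 annotation was used.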

How the data were processed

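H3K4me3 and H3K27me3 ChIP-seq peak lists of 8 libraries were used; input libraries (4 samples) were left aside. The authors deposited for each library a list of mm9 peaks with a score, which per the file headers is -10 × log10 of the p-value. Per the submitters' processing notes, the tools include Bowtie 0.12.7 and MACS 1.4.2. The lowest deposited score was 80.01, and read depth per library is unknown.

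Starts were taken to count from 0 and are printed counting from 1. Peaks sharing at least 1 bp with a window or with each other were matched or joined, and covered length is the sum of peak widths in a region. The joining, pattern and distance rules were tested on simulated peaks, and 7 of 7 gave back what was put in. The members and lists were chosen with earlier results of these data known. Named were the 3 genes, every peak in their windows and the 2 regions most like each gene. Other matrix genes and cell type markers were planned for an mm9 annotation only and were not analysed here. Alternatives are in the closing section. Tables were computed in Python 3.11.15 with pandas 2.3.3 and numpy 2.4.6, intervals for the alternatives (95%, exact binomial) with scipy 1.17.1, and plots with matplotlib 3.10.9. Those intervals treat the peaks of a list as independent draws and measure no spread between replicates.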

Additional observations from a re-analysis of the deposited data

Results flagged for a closer look

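Within the main region of each of the 3 genes, the covered H3K4me3 length differed between doxorubicin and mock in opposite directions in WT and KO cells. The doxorubicin over mock ratio was 1.05 in WT and 0.969 in KO cells at Col1a1, 0.778 and 1.12 at Col1a2, and 0.988 and 1.19 at Fn1. These directions depended on the processing at Col1a1 and Fn1. At Col1a1 both turned when regions were joined across gaps under 1 kb (0.862 and 1.09) and by the width of the widest peak (0.877 and 1.19). Divided by the median ratio of all shared regions, the Fn1 ratios were 1.07 and 1.14, in the same direction. With 1 library per condition, whether WT and KO differ in this was not tested. Opposite directions were found at 56.5% of the 13107 regions present in every list, so that they are the more common case in these lists.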

How the results depend on the processing

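No paired analysis was possible because each mark and condition had 1 library and no test was run. No replicate could be left out for the same reason. The counts of 0 H3K27me3 peaks in the 3 windows stayed at 0 with windows widened by 10 kb. Scores of at least 100, peaks wholly in the window and joined peaks were also tried. Those settings could only leave a count of 0 unchanged and are no check of it. Joining peaks less than 1 kb apart left 4 H3K4me3 peaks at Col1a2 and 4 at Fn1 over the 4 lists, 1 per library. With the width of the widest peak in place of covered length, 3 ratios passed 1.5-fold, namely 0.496 (Col1a2, doxorubicin over mock in WT), 0.662 (Fn1, KO over WT in mock) and 1.93 (Col1a2, KO over WT in doxorubicin), each in a list that split the region. The share of all regions past 1.5-fold by that width was not counted. The doxorubicin over mock ratios of Col1a1 turned from 1.05 (WT) and 0.969 (KO) to 0.877 and 1.19 by the widest peak and to 0.862 and 1.09 by joining across gaps under 1 kb. The Col1a2 ratio of 0.778 in WT passed the lower fold threshold that was tried. Joining regions across gaps under 1 kb, chosen after seeing the data, gave Col1a2 KO over WT ratios of 1.52 in mock and 2.04 in doxorubicin. With scores of at least 100 as well, these were 1.31 and 2.04. Among peaks of regions present in every list, the share narrower than the main peak was 97.8% and 97.1% for Col1a1 in WT mock and WT doxorubicin, and 93.2%, 54.6% and 95.3% for Col1a2 in WT mock, WT doxorubicin and KO doxorubicin. The share with a lower score was 79.7% (WT mock), 76.1% (WT doxorubicin) and 60.8% (KO doxorubicin) for Col1a1 and Fn1, 83.5% for Fn1 in KO mock, and 47.7%, 27.2%, 54.6% and 60.8% for Col1a2 in WT mock, WT doxorubicin, KO mock and KO doxorubicin. In the 100 bases before the annotated Col1a2 start there were 0 matches to CCAAT and 0 to GGGCGG.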
